A study of Saccharomyces cerevisiae S288C with 24 samples.

Results

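The genes described here are 10 heat shock protein genes of the budding yeast Saccharomyces cerevisiae that lie outside the Hsp70 family: HSP82, HSC82, HSP104, HSP78, HSP42, HSP26, HSP12, HSP30, HSP60 and HSP10. They were chosen by name, and each was found as 1 locus of its own among the 6929 loci of the deposited table. RNA of a TRP5 deletion strain, called Sc12, and of its parent BY4741 (WT) was sequenced as 50-base single-end reads. TRP5 encodes tryptophan synthase, and the study asked how a strain that cannot make tryptophan responds to isobutanol, an alcohol that can be made by yeast as a fuel, and whether supplied tryptophan changes that response. The 8 groups were Sc12 + IB + Trp, Sc12 + IB, Sc12 + Trp, Sc12, WT + IB + Trp, WT + IB, WT + Trp and WT, with 3 libraries each, where IB is 1.2% isobutanol and Trp is 200 µg/ml of added tryptophan. Every culture was grown in 4 ml of the rich medium YPD and harvested at 24 h, so cultures without added tryptophan still had the tryptophan of the medium, and all of them carry the marker deletions of BY4741 (LEU2, MET17 and URA3 among them). All cultures were harvested at 1 time, so the growth stage reached and the treatment cannot be told apart. The labels do not say that the 3 libraries of a group came from separate cultures, and p-values then measure only the spread between these libraries, which may be technical.

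Heat shock proteins are chaperones and related proteins that bind unfolded polypeptides, help them to fold or take them out of aggregates. In yeast their genes are switched on mainly by Hsf1, which binds heat shock elements built from inverted repeats of GAA and TTC, and by the related factors Msn2 and Msn4, which bind the stress response element AGGGG. HSP82 and HSC82 encode the cytosolic chaperone Hsp90, the first strongly induced by heat and the other made at a high level at all times. HSP104 encodes the cytosolic disaggregase and HSP78 its mitochondrial relative. HSP42 and HSP26 encode small heat shock proteins that hold misfolded proteins in aggregates, and HSP12 a small soluble protein that associates with membranes. HSP30 encodes a plasma membrane protein known to restrain the proton pump Pma1. HSP60 and HSP10 encode the chaperonin of the mitochondrial matrix and its lid.

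The stretches of DNA ahead of these genes differ in the exact matches to these elements that they hold. The sequences of 6 members are shown: HSP78, HSP104 and HSP42 with matches to both elements, HSP82 and HSP12 with matches to the stress response element alone, and HSP30 with neither. HSP10 and HSP60, with a match to the heat shock element alone, are not shown. Each line gives the 220 bases that lie 320 to 101 bases before the start codon, 5' to 3' on the strand of the gene, from the RefSeq genome of build R64, which holds the same positions as sacCer3 for all 10 members. Capitals mark matches to the heat shock element GAANNTTCNNGAA or TTCNNGAANNTTC and to the stress response element AGGGG or CCCCT.
HSP78, chrIV:974344-974563, minus strand: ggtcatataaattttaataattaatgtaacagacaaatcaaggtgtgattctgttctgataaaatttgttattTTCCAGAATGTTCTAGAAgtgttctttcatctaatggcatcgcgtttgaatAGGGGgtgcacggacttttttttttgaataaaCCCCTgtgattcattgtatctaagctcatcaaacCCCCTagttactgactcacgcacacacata
HSP104, chrXII:88303-88522, plus strand: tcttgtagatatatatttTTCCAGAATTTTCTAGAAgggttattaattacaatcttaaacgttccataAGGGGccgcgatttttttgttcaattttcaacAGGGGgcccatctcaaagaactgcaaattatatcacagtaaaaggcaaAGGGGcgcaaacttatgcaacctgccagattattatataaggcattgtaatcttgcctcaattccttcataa
HSP42, chrIV:806301-806520, plus strand: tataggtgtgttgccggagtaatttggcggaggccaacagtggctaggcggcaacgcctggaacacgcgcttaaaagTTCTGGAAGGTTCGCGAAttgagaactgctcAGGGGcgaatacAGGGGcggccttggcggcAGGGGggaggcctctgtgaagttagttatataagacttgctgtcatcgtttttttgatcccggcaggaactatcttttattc
HSP82, chrXVI:98726-98945, minus strand: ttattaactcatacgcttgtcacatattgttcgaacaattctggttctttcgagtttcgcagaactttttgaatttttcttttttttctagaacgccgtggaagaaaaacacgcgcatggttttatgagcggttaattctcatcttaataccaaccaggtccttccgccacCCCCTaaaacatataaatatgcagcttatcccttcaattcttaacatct
HSP12, chrVI:106936-107155, plus strand: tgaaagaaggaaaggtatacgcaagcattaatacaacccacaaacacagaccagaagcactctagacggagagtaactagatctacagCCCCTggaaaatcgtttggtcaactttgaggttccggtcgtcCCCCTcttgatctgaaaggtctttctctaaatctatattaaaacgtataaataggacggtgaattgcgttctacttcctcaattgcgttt
HSP30, chrIII:157208-157427, minus strand: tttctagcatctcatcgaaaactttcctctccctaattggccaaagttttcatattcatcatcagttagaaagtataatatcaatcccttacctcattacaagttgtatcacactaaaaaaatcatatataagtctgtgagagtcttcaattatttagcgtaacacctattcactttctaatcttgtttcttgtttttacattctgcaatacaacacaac
A heat shock element of 3 units was found in this window in 5 of the 10 members (HSP10, HSP42, HSP60, HSP78 and HSP104) and in 50 of 6001 protein-coding genes, a share of 0.833%. In HSP42, HSP78 and HSP104, 2 such matches overlap and form 4 alternating units, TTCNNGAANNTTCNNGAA, which 9 of the 6001 genes hold (0.15%, both strands searched). The stress response element occurred in 5 members, with 3 matches each in HSP42, HSP78 and HSP104, 2 in HSP12 and 1 in HSP82, and in 17.6% of all genes. HSP30, HSC82 and HSP26 held neither motif in this window, and HSP26 held 3 stress response elements when 500 bases were read. A match describes letters only, and a window without one says that these exact letters are not there.

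The members are spread over 8 chromosomes of sacCer3, and each locus covers the coding sequence from the start to the stop codon, in 1 exon of the annotation. HSP82 (YPL240C, chromosome XVI, 96496 to 98625, minus strand) and HSC82 (YMR186W, chromosome XIII, 632355 to 634472, plus strand) share 133 windows of 50 bases, which is 6.39% of the windows of HSP82 and 6.43% of those of HSC82, so a small part of the reads of each could be assigned to the other. HSP104 (YLL026W, chromosome XII, 88623 to 91349, plus strand) and HSP78 (YDR258C, chromosome IV, 971808 to 974243, minus strand) share no such window with any locus, and the same was found for the remaining members. HSP42 (YDR171W, chromosome IV, 806621 to 807748, plus strand), HSP26 (YBR072W, chromosome II, 382030 to 382674, plus strand) and HSP12 (YFL014W, chromosome VI, 107256 to 107585, plus strand) encode the small proteins. HSP30 (YCR021C, chromosome III, 156109 to 157107, minus strand), HSP60 (YLR259C, chromosome XII, 663284 to 665002, minus strand) and HSP10 (YOR020C, chromosome XV, 370524 to 370844, minus strand) complete the set.

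TRP5 had 0 to 11 fragments in each library of Sc12, against 2921 to 8481 in each WT library, and the marker genes LEU2, MET17 and URA3 had 0 in all 24 libraries. The libraries held 5218712 to 14580261 fragments, and the shallowest was Sc12 replicate 3, which the labels mark as a make-up library together with Sc12 + Trp replicate 1. Levels are given as CPM, counts scaled to library size after TMM scaling, which sets the bulk of loci equal between libraries. The TMM factors of Sc12 + IB were 0.588 to 0.687, against 0.970 to 1.14 in the other 21 libraries. When library totals are used in place of TMM, the median of all loci in Sc12 + IB against Sc12 moves to -0.84, against -0.0195 with TMM (log2), so every member's difference from Sc12 + IB shifts by about this amount, and values with library totals are given beside the results that turn on it. CPM are shares of a library, so fewer cells and less RNA per cell cannot be told apart. A locus was called when its fold change exceeded 1 on the log2 scale and its Benjamini-Hochberg adjusted p in edgeR's quasi-likelihood test, over all 6346 loci tested, was below 0.05. All 10 members were tested.

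In Sc12 grown with isobutanol, 5 of the 10 members rose and none fell: HSP30 by 3.37, HSP78 by 2.11, HSP82 by 1.62, HSP42 by 1.55 and HSP104 by 1.09 on the log2 scale relative to Sc12. Of all loci tested, 17.2% were called higher and 10.6% lower in this comparison. In WT the same treatment gave 0 members higher and 4 lower (HSP78, HSP30, HSP104 and HSP26), where 11.8% of all loci were called higher and 8.89% lower. With tryptophan present, WT + IB + Trp against WT + Trp had 5 members lower, the same 4 and HSP12, and 0 higher, with a background of 8.56% lower and 11.2% higher. Sc12 + IB + Trp against Sc12 + Trp had 4 members lower (HSP104, HSP78, HSC82 and HSP30) and none higher, with a background of 8.02% lower and 9.93% higher. The median log2 fold change of the members was 0.95 in Sc12 + IB against Sc12, -0.70 in WT + IB against WT, -0.85 in WT + IB + Trp against WT + Trp and -0.18 in Sc12 + IB + Trp against Sc12 + Trp, while the medians of all loci lay between -0.0195 and 0.0227. Libraries did not overlap for 9 of 10 members in Sc12 + IB against Sc12 (78.5% of all loci), 9 in WT + IB against WT (74.8%), 7 in WT + IB + Trp against WT + Trp (67.4%) and 5 in Sc12 + IB + Trp against Sc12 + Trp (72.1%). By adjusted p alone, without the fold threshold, 9 members passed in Sc12 + IB against Sc12 (73.4% of all loci), 8 in WT + IB against WT (69.4%), 8 in WT + IB + Trp against WT + Trp (68.6%) and 4 in Sc12 + IB + Trp against Sc12 + Trp (69.3%).

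The rise in Sc12 + IB depended on the scaling. With library totals in place of TMM, 2 members were called higher (HSP30, 2.53, and HSP78, 1.27) and 2 lower (HSP26, -1.43, and HSP60, -1.21), against 5 higher and 0 lower with TMM. Of all loci, 7.8% were higher and 42.3% lower with library totals, so the members called higher were above that background and those called lower under it. HSP82, at 0.79, HSP42, at 0.71, and HSP104, at 0.25, were then under the fold threshold. Without Sc12 + IB replicate 3, HSP104 was at 0.94 and was not called, and the other 4 stayed called. The share of all fragments in a library is itself a scaling by library totals. By this share the 10 members together took 5.35 ± 0.16% in Sc12 + IB, against 3.85 ± 0.08% in Sc12 (SD, n = 3 each). They took 2.77 ± 0.52% in Sc12 + IB + Trp, against 3.77 ± 0.05% in Sc12 + Trp. In WT + IB they took 2.64 ± 0.16%, against 4.64 ± 0.04% in WT, and in WT + IB + Trp 2.43 ± 0.25%, against 4.58 ± 0.37% in WT + Trp.

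**Figure D1:**
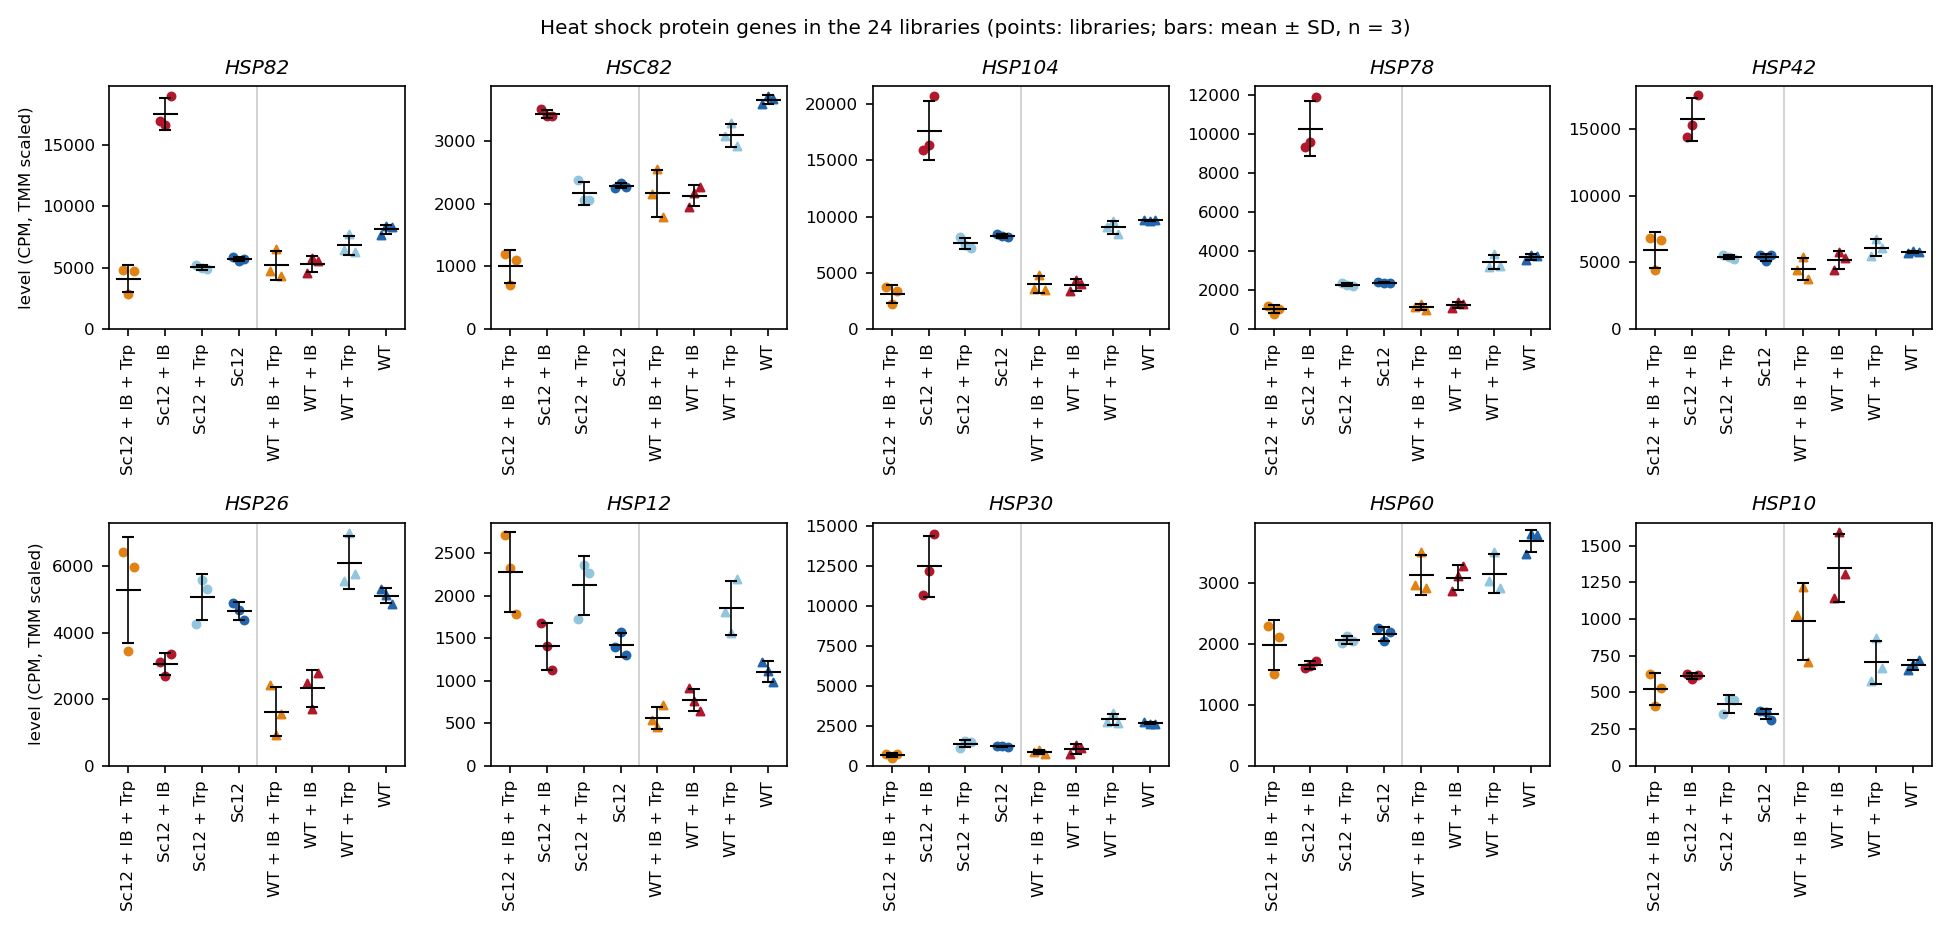
Level of each of the 10 heat shock protein genes (CPM after TMM scaling, vertical axis from 0) in the 8 groups, with a point for each library and bars for the mean ± SD of 3. Sc12 + IB stands above every other group for HSP30, HSP78, HSP82, HSP42 and HSP104, for example 12462 ± 1938 CPM for HSP30 in Sc12 + IB against 1206 ± 42.0 in Sc12.

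**Figure D2:**
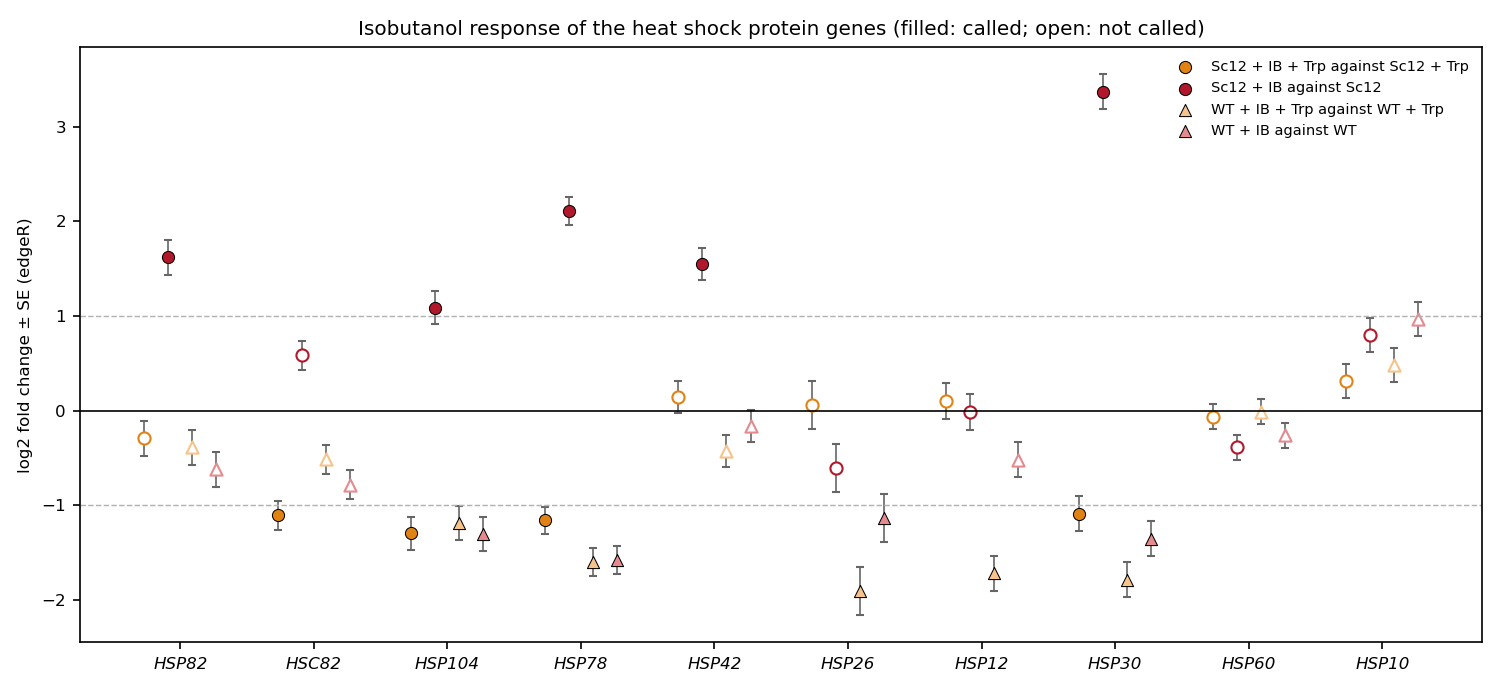
Log2 fold change of each gene with isobutanol in the 4 comparisons (bars are ± SE of the edgeR fit; filled points are called, open points are not). For HSP30 the point of Sc12 + IB against Sc12 lies above 0, at 3.37, and that of WT + IB against WT below it, at -1.35.

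Of the 4 comparisons of added tryptophan, members were called in 1, that of Sc12 with isobutanol. In Sc12 + IB + Trp against Sc12 + IB, 6 members fell and none rose: HSP30 (-4.26), HSP78 (-3.34), HSP104 (-2.51), HSP82 (-2.09), HSC82 (-1.77) and HSP42 (-1.40) on the log2 scale. Of all loci, 14.6% were called lower and 9.39% higher. Libraries did not overlap for 8 members (72.6% of all loci), and 8 passed by adjusted p alone (70.6%). This comparison and Sc12 + IB against Sc12 share the Sc12 + IB libraries, so the fall and the rise are not independent. With library totals, 5 members were lower and 2 higher (HSP26, 1.53, and HSP12, 1.43), and HSP42, at -0.65, was not called. Of all loci, 6.93% were then lower and 37.8% higher, so the 2 members higher of 10 were under that background. No member was called in WT + IB + Trp against WT + IB, Sc12 + Trp against Sc12 or WT + Trp against WT, where 0%, 0.378% and 0.0158% of all loci were called by edgeR. DESeq2 called 0 members in each of these comparisons. At an unadjusted p below 0.05 in edgeR they held 2, 1 and 1 of the 10 members. The share of all loci at that threshold was not counted, so no background can be set beside these counts. The largest of these differences was that of HSP12 in WT + Trp against WT, at 0.75 (SE 0.19, adjusted p = 0.234). Whether tryptophan's effect under isobutanol differed between the strains was tested as an interaction. It was lower in Sc12 than in WT for the same 6 members (15.5% of all loci) and higher for HSP26 and HSP12 (9.94%), and the same 8 passed by adjusted p alone (61.7%). With library totals HSP42, at -0.46, was not called, which left 5 members lower (7.15% of all loci) and 2 higher (36.6%).

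**Figure D3:**
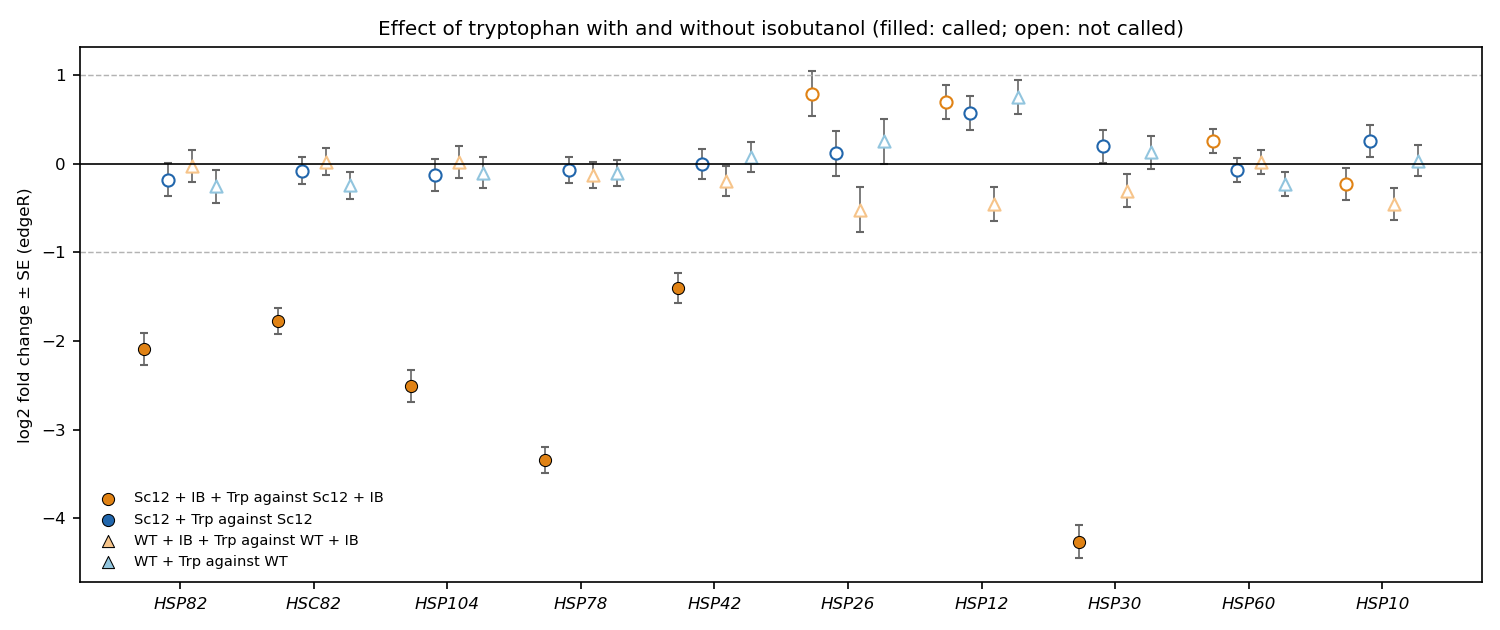
Log2 fold change of each gene with added tryptophan in the 4 comparisons (bars are ± SE of the edgeR fit; filled points are called, open points are not). Filled points occur in Sc12 + IB + Trp against Sc12 + IB alone, from -1.40 for HSP42 to -4.26 for HSP30.

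Between the strains without isobutanol, only HSP30 was called: it was lower in Sc12 than in WT, at -1.14 (SE 0.19, adjusted p = 5.04e-05), and lower in Sc12 + Trp than in WT + Trp, at -1.07 (SE 0.19, adjusted p = 0.000104), where 1.53% and 1.65% of all loci were called lower and 1.78% and 1.56% higher. By adjusted p alone 6 members passed in the first (41.2% of all loci) and 5 in the second (40.9%). The second of these calls was lost with library totals (-0.98, with 1.2% of all loci lower), without WT + Trp replicate 2 (-0.97) and without the make-up library Sc12 + Trp replicate 1 (-0.93). HSP10, at -0.97 (SE 0.18, adjusted p = 0.000182) in Sc12 against WT, was just under the fold threshold, and it was called as well when WT replicate 1, Sc12 replicate 1 or Sc12 replicate 2 was left out, which gave 2 members in place of 1. Under isobutanol, Sc12 + IB against WT + IB gave 5 members higher (HSP30, HSP78, HSP104, HSP82 and HSP42; background 16.1%) and HSP10 lower (background 11.1%), and 9 passed by adjusted p alone (73.5% of all loci). With library totals this was 4 higher, without HSP42 (0.95), and 2 lower, with HSP60 (-1.55) added, where 8.07% of all loci were higher and 33.9% lower. With both additions, Sc12 + IB + Trp against WT + IB + Trp gave HSP12 and HSP26 higher (background 11.8%) and HSC82 lower (background 12.2%), and 6 passed by adjusted p alone (72.9%). The response to isobutanol itself was higher in Sc12 than in WT for 6 members and lower for 0 (background 16% and 9.27%; the same 6 passed by adjusted p alone, 63.2%), namely HSP30, HSP78, HSP104, HSP82, HSP42 and HSC82. With library totals, HSP42 (0.94) and HSC82 (0.61) were not called, which left 4 higher and 0 lower, where 6.79% of all loci were higher and 38.9% lower. With tryptophan present it was higher in Sc12 for HSP26 and HSP12 and lower for none (background 11.1% and 11.6%), and 5 members passed by adjusted p alone (62.3%).

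The 2 Hsp90 genes took different courses. HSP82, the inducible one, had 16916, 16591 and 18966 CPM in the Sc12 + IB libraries, against 5849.9, 5534 and 5670.3 CPM in the Sc12 libraries. All 3 Sc12 + IB libraries were above every other library of the series, and HSP82 rose 3.08-fold, a log2 fold change of 1.62 (SE 0.18, adjusted p = 5.21e-08). With library totals the log2 fold change was 0.79 and not called. HSP82 in Sc12 + IB + Trp had 4768, 2825 and 4726 CPM, against 5223, 4930.3 and 4908 CPM in Sc12 + Trp, a difference of -0.29 (SE 0.18, adjusted p = 0.165) that was not called although the libraries did not overlap. WT + IB had 4531, 5777 and 5571 CPM, against 7675, 8351 and 8327 CPM in WT. The WT + IB libraries were all lower, at -0.62 (SE 0.18, adjusted p = 0.00497), but under the fold threshold. WT + IB + Trp had 4747, 6528 and 4325 CPM, against 6425, 7731 and 6244 CPM in WT + Trp, and these groups overlapped. HSC82, the constitutive one, had 3505, 3403 and 3395 CPM in Sc12 + IB, against 2258, 2333 and 2276 CPM in Sc12. Its libraries did not overlap either, yet the difference of 0.59 (SE 0.15, adjusted p = 0.00143) was not called, and with library totals it changed sign to -0.24. HSC82 had 1199.7, 708 and 1109 CPM in Sc12 + IB + Trp, against 2377, 2064 and 2055 CPM in Sc12 + Trp. It fell by 1.11 (SE 0.15, adjusted p = 1.07e-06), and without Sc12 + IB + Trp replicate 2, the lowest library, the value was -0.91 and not called. WT + IB had 1945, 2179 and 2272 CPM, against 3593, 3724 and 3672 CPM in WT, and WT + IB + Trp had 2157, 2551 and 1795 CPM, against 3078, 3289 and 2921 CPM in WT + Trp. HSC82 was highest in WT, and its lowest group, Sc12 + IB + Trp, did not overlap with any other. It was the 1 member called lower in Sc12 + IB + Trp against WT + IB + Trp, at -1.11, a call lost without WT + IB + Trp replicate 2 (-0.95) or Sc12 + IB + Trp replicate 2 (-0.91).

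The ratio of HSP82 to HSC82, each per coding length, does not depend on the scaling between libraries. It was 4.8, 4.85 and 5.55 in Sc12 + IB, against 2.58, 2.36 and 2.48 in Sc12, which is 5.07 ± 0.423 against 2.47 ± 0.109 (SD, n = 3 each; exact two-sided permutation p = 0.1, the smallest that 3 against 3 libraries allow). In Sc12 + IB + Trp the ratio was 3.95, 3.97 and 4.24, against 2.19, 2.38 and 2.38 in Sc12 + Trp (exact permutation p = 0.1). Tryptophan lowered both Hsp90 transcripts under isobutanol in Sc12, and their ratio still stood above that of Sc12 + Trp without overlap. In WT + IB the ratio was 2.32, 2.64 and 2.44, against 2.12, 2.23 and 2.25 in WT (exact permutation p = 0.1), and in WT + IB + Trp it was 2.38 ± 0.179, against 2.18 ± 0.139 in WT + Trp (exact permutation p = 0.2), so in WT it moved by at most 0.16 on the log2 scale, compared with 1.03 in Sc12 + IB against Sc12.

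With TMM scaling, the disaggregase genes HSP104 and HSP78 rose together in Sc12 + IB and fell in each of the other isobutanol comparisons. HSP104 had 15907, 16361 and 20693 CPM in Sc12 + IB, against 8479.8, 8281 and 8150.4 CPM in Sc12. All of the first were higher, with replicate 3 the highest, and the log2 fold change was 1.09 (SE 0.18, adjusted p = 9.41e-06). It was 0.25 (edgeR adjusted p = 0.104) with library totals and 0.94 without Sc12 + IB replicate 3, and was called in neither. Sc12 + IB + Trp had 3704, 2229 and 3377 CPM, against 8149, 7466 and 7246 CPM in Sc12 + Trp, and the gene fell, at -1.30 (SE 0.18, adjusted p = 1.15e-06). In WT + IB it had 3370, 4381 and 3994 CPM, against 9704, 9628 and 9696 CPM in WT, and fell, at -1.31 (SE 0.18, adjusted p = 9.19e-07). In WT + IB + Trp it had 3606, 4814 and 3511 CPM, against 9089.7, 9609.7 and 8415 CPM in WT + Trp, and fell, at -1.18 (SE 0.18, adjusted p = 3.74e-06). None of these 3 pairs overlapped. The groups with isobutanol other than Sc12 + IB thus sat at 2229 to 4814 CPM, and those without it at 7246 to 9704 CPM. HSP78 had 9351, 9577 and 11903 CPM in Sc12 + IB, against 2420.5, 2381 and 2360.4 CPM in Sc12, a rise of 4.30-fold with a log2 fold change of 2.11 (SE 0.15, adjusted p = 1.61e-11). With library totals HSP78 rose by 1.27 and was still called. Its libraries lay close together in Sc12 and farther apart in Sc12 + IB, without overlap. Sc12 + IB + Trp had 1201, 794 and 1051 CPM, against 2354, 2241 and 2207 CPM in Sc12 + Trp. WT + IB had 1066, 1364 and 1282 CPM, against 3543, 3787 and 3748 CPM in WT, and WT + IB + Trp had 1118, 1274 and 998 CPM, against 3206, 3852 and 3232 CPM in WT + Trp. HSP78 fell in all 3 of these pairs, at -1.16, -1.58 and -1.60 on the log2 scale. Between Sc12 + IB + Trp and Sc12 + IB its libraries differed by -3.34 (SE 0.15, adjusted p = 8.25e-15), and the interaction of strain and isobutanol was 3.68 (SE 0.21, adjusted p = 7.08e-13). With library totals these were -2.59 and 2.92, both still called. Over the 24 libraries, log2 CPM of HSP78 and HSP104 had a Pearson r of 0.973, the highest of all 45 pairs of members. The points share libraries and treatments, so it is a description.

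Of the small heat shock protein genes, HSP42 rose in Sc12 + IB while HSP26 and HSP12 did not. HSP42 had 14384, 15274 and 17541 CPM in Sc12 + IB, against 5555, 5086 and 5529.7 CPM in Sc12, and rose by 1.55 (SE 0.17, adjusted p = 2.71e-08). With library totals the rise was 0.71 and not called. The Sc12 + IB libraries were all above the others, and the remaining 7 groups covered a narrow range, from 4534 ± 817 CPM in WT + IB + Trp to 6098 ± 630.2 CPM in WT + Trp (mean ± SD, n = 3 each). In those groups the gene had 6801, 4408 and 6662 CPM in Sc12 + IB + Trp, against 5529.7, 5389 and 5239.7 CPM in Sc12 + Trp, and 4437, 5777 and 5301 CPM in WT + IB, against 5730, 5862 and 5749.9 CPM in WT, with overlap in both pairs. WT + IB + Trp had 4425, 5401 and 3777 CPM, against 5487, 6746 and 6060.4 CPM in WT + Trp, without overlap, at -0.43 (SE 0.17, adjusted p = 0.0289), which is under the fold threshold. With TMM scaling, HSP42 and HSP82 were the members called in Sc12 + IB against Sc12 that were called in no other isobutanol comparison.

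HSP26 had 3110.2, 2697 and 3352 CPM in Sc12 + IB, against 4889.7, 4678 and 4378 CPM in Sc12. The Sc12 + IB libraries were the lower ones, at -0.61 (SE 0.25, adjusted p = 0.036), not called with TMM and called lower with library totals. Sc12 + IB + Trp had 6409, 3460.3 and 5959.8 CPM, with replicate 2 the lowest, against 4269, 5578 and 5322 CPM in Sc12 + Trp, and these groups overlapped. In WT + IB the gene had 2483, 1712 and 2794 CPM, against 5321, 5134 and 4869.7 CPM in WT, and it fell by 1.13 (SE 0.25, adjusted p = 0.000431). This call was lost without WT + IB replicate 2, the lowest library (-0.96), and with limma on log2(FPKM + 1) (-0.82, limma adjusted p = 0.141). In WT + IB + Trp it had 2410.2, 915 and 1552 CPM, against 5544, 7002 and 5758 CPM in WT + Trp, and it fell by 1.91. The 3 libraries of WT + IB + Trp spread more widely than those of any other group for this gene relative to their mean, with a coefficient of variation of 46.1%. HSP12 had 1684, 1404 and 1128 CPM in Sc12 + IB, against 1399, 1574 and 1298 CPM in Sc12, and these overlapped, at -0.018 ± 0.19 (log2 fold change ± SE). With library totals the difference was -0.83 (edgeR adjusted p = 0.000894), under the fold threshold, and all Sc12 + IB libraries were then below those of Sc12. Sc12 + IB + Trp, with 2721, 2326 and 1782 CPM, overlapped with Sc12 + Trp, with 1726, 2365 and 2274 CPM. In WT + IB HSP12 had 913, 756 and 647 CPM, against 1223, 1112 and 979 CPM in WT, lower without overlap but under the fold threshold (-0.52 ± 0.19). In WT + IB + Trp it had 534, 450.4 and 708 CPM, against 1815, 1565 and 2194 CPM in WT + Trp, and fell by 1.72. With limma on log2(FPKM + 1) the value was -1.31 (limma adjusted p = 0.0697) and not called. Against WT + IB + Trp, Sc12 + IB + Trp was higher by 2.01 (SE 0.19, adjusted p = 4.27e-09) for HSP12 and by 1.70 (SE 0.25, adjusted p = 3.81e-06) for HSP26, with no overlap for either. These 2 genes were the only members called higher in that comparison, and both were outside the 5 that rose in Sc12 + IB against Sc12. Their log2 CPM had an r of 0.779 over the 24 libraries.

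HSP30, the plasma membrane protein, had the widest range of the 10 genes: its highest group mean was 19.2 times the lowest, while the others spanned 2.23 to 10.1 times. It had 10664, 12209 and 14514 CPM in Sc12 + IB, against 1238, 1221 and 1158 CPM in Sc12, a rise of 10.3-fold with a log2 fold change of 3.37 (SE 0.19, adjusted p = 5.1e-13). With library totals the log2 fold change was 2.53 and still called. All Sc12 + IB libraries were far above the rest, with replicate 3 the highest. The gene was at its lowest in Sc12 + IB + Trp, with 734, 503 and 713 CPM, against 1109, 1545 and 1493 CPM in Sc12 + Trp, without overlap. It fell by 1.09, and without Sc12 + IB + Trp replicate 2 the value was -0.93 and not called, which with HSC82 left 2 members called of 4 in that comparison. WT + IB had 739, 1303 and 1072 CPM, against 2710, 2629 and 2613 CPM in WT, and WT + IB + Trp had 821, 972 and 729.7 CPM, against 2709, 3291 and 2692 CPM in WT + Trp. HSP30 fell in both, at -1.35 and -1.78 on the log2 scale, and the WT groups without isobutanol were second only to Sc12 + IB. The difference of the isobutanol response between the strains was 4.72 (SE 0.26, adjusted p = 7.3e-13), and that of the tryptophan effect under isobutanol -3.96 (SE 0.26, adjusted p = 1.42e-11). With library totals these were 3.96 and -3.21, both still called.

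Genes related to HSP30 moved with it in part. A list of 6 genes held its homologs MRH1 and YRO2, the proton pump genes PMA1 and PMA2 and the pump's small subunits PMP1 and PMP2. In Sc12 + IB against Sc12, 2 of these 6 rose, YRO2 by 4.69 and PMA1 by 2.46, with a median of 0.88 over the list. Of all loci, 17.2% rose and 10.6% fell. YRO2 and PMA1 stayed called with library totals, which gave 2 higher and 1 lower, where 7.8% of all loci were higher and 42.3% lower. With tryptophan added to isobutanol, in Sc12 + IB + Trp against Sc12 + IB, 4 of the 6 fell: YRO2 (-4.28), PMA1 (-3.22), MRH1 (-1.83) and PMP1 (-1.54, or -0.79 and not called with library totals). Of all loci, 14.6% fell and 9.39% rose. In WT + IB against WT, 3 of the 6 fell, MRH1 at -1.58, PMP1 at -1.19 and PMA2 at -1.19, and PMP2 rose by 1.19, where 8.89% of all loci fell and 11.8% rose. Like HSP30, 4 of the 6 were lower in Sc12 than in WT (1.53% of all loci): YRO2 (-2.06), PMP2 (-1.38), MRH1 (-1.18) and PMA1 (-1.05). With library totals PMA1, at -0.93, was not called and the other 3 were, where 1.04% of all loci were lower.

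The 2 genes of the mitochondrial chaperonin were not called in any isobutanol comparison with TMM scaling, and they differed from each other. HSP10, the lid, had 628, 590.4 and 615 CPM in Sc12 + IB, against 369.8, 369 and 311 CPM in Sc12, higher without overlap, at 0.80 (SE 0.18, adjusted p = 0.000364). With library totals this became -0.02. In WT + IB it had 1142, 1594 and 1307 CPM, against 652, 695 and 718 CPM in WT, also higher without overlap, at 0.97 (SE 0.18, adjusted p = 4.69e-05), close to the fold threshold. Sc12 + IB + Trp had 627, 406 and 532 CPM, against 351, 458 and 449 CPM in Sc12 + Trp, and WT + IB + Trp had 1029, 1221 and 705 CPM, against 579, 868 and 668 CPM in WT + Trp, with overlap in both pairs. HSP10 was the 1 member with a higher mean in the isobutanol group in all 4 comparisons with TMM scaling, and the 1 called lower in Sc12 + IB against WT + IB, at -1.14 (-0.99 and not called without WT + IB replicate 2). HSP60, the barrel, had 1606, 1628 and 1724 CPM in Sc12 + IB, against 2256, 2039 and 2193 CPM in Sc12, lower without overlap, at -0.39 (SE 0.13, adjusted p = 0.0119). In WT + IB it had 2861, 3109 and 3279 CPM, against 3479, 3807 and 3781 CPM in WT, and the difference of -0.26 ± 0.13 did not pass the test (adjusted p = 0.0877). Sc12 + IB + Trp had 2296, 1509 and 2112 CPM, against 2005, 2133 and 2051 CPM in Sc12 + Trp, and WT + IB + Trp had 2969, 3501 and 2914 CPM, against 3033, 3507 and 2907 CPM in WT + Trp. These pairs overlapped. HSP60 was lower in each Sc12 group than in the WT group with the same additions, without overlap, at -0.61 to -0.90 on the log2 scale, under the fold threshold with TMM scaling in all 4 pairs.

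The ratio of HSP60 to HSP10 per coding length was 0.477, 0.515 and 0.523 in Sc12 + IB, against 1.14, 1.03 and 1.31 in Sc12, so every Sc12 + IB library was lower (exact permutation p = 0.1). It was 0.468, 0.364 and 0.469 in WT + IB, against 0.997, 1.02 and 0.984 in WT (exact permutation p = 0.1). With tryptophan it was 0.707 ± 0.0306 in Sc12 + IB + Trp, against 0.930 ± 0.119 in Sc12 + Trp (exact permutation p = 0.1), and 0.616 ± 0.136 in WT + IB + Trp, against 0.848 ± 0.116 in WT + Trp (SD, n = 3 each; exact permutation p = 0.2). The group means were 0.434 to 0.707 with isobutanol and 0.848 to 1.16 without it. From the deposited FPKM, which do not follow the fragments in some libraries, the direction was kept without tryptophan and turned in both comparisons with it.

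**Figure D4:**
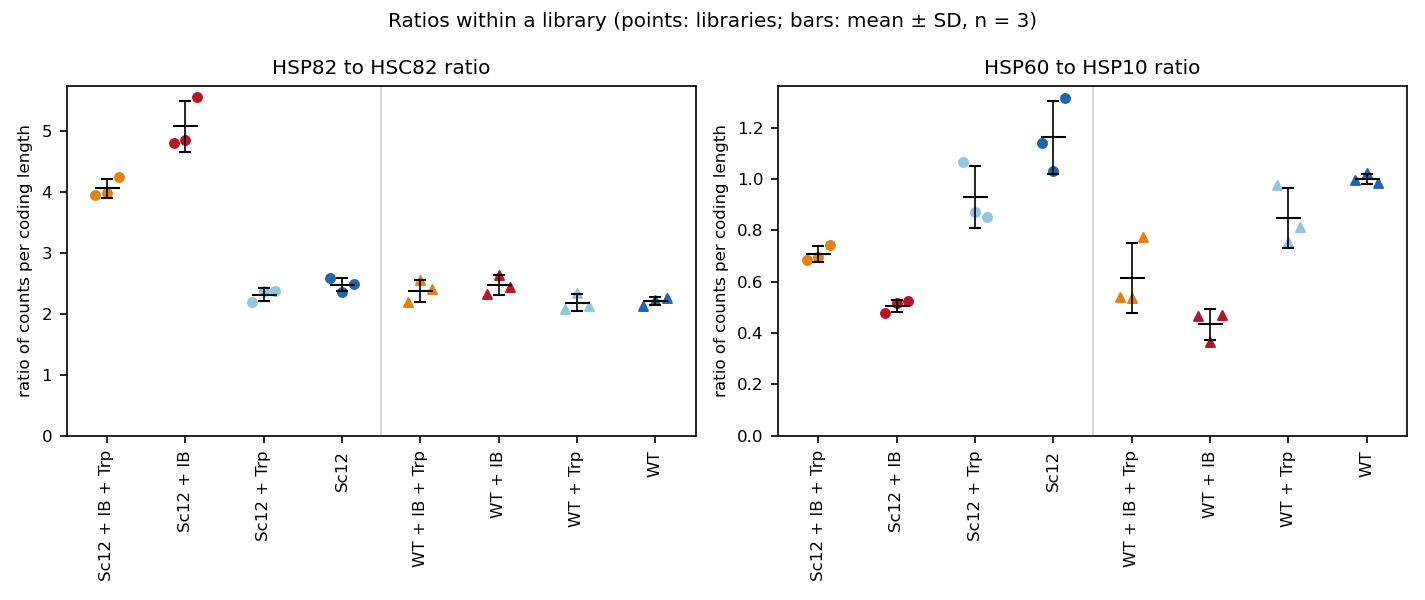
Ratio of HSP82 to HSC82 and of HSP60 to HSP10 in the 8 groups, each gene per coding length (points are libraries, bars mean ± SD of 3). The first ratio is highest in Sc12 + IB, at 5.07 ± 0.42, and the second is lower in the 4 groups with isobutanol, at means of 0.434 to 0.707, than in the 4 without it, at 0.848 to 1.16.

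Per kilobase of coding length (RPKM after TMM scaling), the order of the members changed between the groups. In Sc12 + IB the most abundant transcripts were HSP42, at 13948 ± 1443 RPKM, HSP30, at 12474 ± 1939, and HSP82, at 8212 ± 605 (SD, n = 3), and the least abundant was HSP60, at 961 ± 36.4. In Sc12 they were HSP26, at 7207 ± 399 RPKM, HSP42, at 4778 ± 234, and HSP12, at 4313 ± 423, and HSP78 was the least abundant, at 980.0 ± 12.6. HSP30 was at 1207 ± 42.0 RPKM in Sc12, among the lower ones. In WT + IB the highest were HSP42, at 4585 ± 602 RPKM, HSP10, at 4199 ± 714, and HSP26, at 3612 ± 864. In WT HSP26 led, at 7919.7 ± 352 RPKM, before HSP42, at 5125 ± 63.1, and HSP82, at 3811 ± 180.2, and HSP78 was lowest, at 1516 ± 53.9. HSP26 led by group mean in all 4 groups without isobutanol and in Sc12 + IB + Trp, at 8180.5 ± 2463 RPKM, and HSP42 led in the other 3. This order holds for fragments per coding length. By the deposited FPKM HSP12 led in 4 groups (Sc12 + IB + Trp, Sc12 + Trp, Sc12 and WT + Trp), HSP10 in 2 (WT + IB + Trp and WT + IB), HSP42 in Sc12 + IB and HSP26 in WT.

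Ordered by group mean of CPM after TMM scaling, HSP30, HSP42, HSP78, HSP82 and HSP104 had Sc12 + IB first, clear of the next group. The 3 other groups with isobutanol were the lowest for HSP30, HSP78 and HSP104 and overlapped with their neighbours among themselves. For HSP82 the lowest mean was that of Sc12 + IB + Trp, whose libraries overlapped with those of WT + IB and WT + IB + Trp. For HSP60 and HSP10, the means of all 4 WT groups came before those of all 4 Sc12 groups. The libraries of the strains were apart for HSP60, while for HSP10 those of WT + Trp overlapped with Sc12 + IB and Sc12 + IB + Trp. For HSP12, WT + IB and WT + IB + Trp were at the low end, apart from the other 6 groups, which overlapped with their neighbours. With library totals, HSP12 in Sc12 + IB, at a mean of 911.62 CPM, overlapped with WT + IB, at 779.9 CPM. For HSP26, the 3 lowest groups were Sc12 + IB, WT + IB and WT + IB + Trp, which overlapped with each other in turn and not with the rest. HSC82 had WT first, then Sc12 + IB and WT + Trp, each apart from the next. With library totals, its Sc12 + IB mean of 2207 CPM came below those of WT + Trp, Sc12 and Sc12 + Trp. Replicate 2 of Sc12 + IB + Trp was the lowest of the 3 libraries for 9 of the 10 members, HSP12 being the exception.

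Other genes of the same pathways were described from lists written from general knowledge of yeast, with counts of called genes and the median log2 fold change. With TMM scaling, 17.2% of all loci were higher and 10.6% lower in Sc12 + IB against Sc12, and 11.8% and 8.89% in WT + IB against WT. In Sc12 + IB + Trp against Sc12 + IB these shares were 9.39% and 14.6%. They were 11.8% and 12.2% in Sc12 + IB + Trp against WT + IB + Trp, and 16.1% and 11.1% in Sc12 + IB against WT + IB. Of 14 other targets of Hsf1, 11 rose and 0 fell in Sc12 + IB against Sc12 (median 1.61, all loci -0.0195), among them the Hsp70 genes SSA2 (3.02) and SSA1 (2.53) and the protein sorting factors CUR1 (2.19) and BTN2 (1.85). With library totals 4 rose, these same genes, and 1 fell (median 0.79, all loci -0.84). In WT + IB against WT, 1 rose, the Hsp90 activator AHA1 (2.40), and 1 fell, the Hsp70-Hsp90 adaptor STI1 (-1.45), with a median of -0.14. With tryptophan, in Sc12 + IB + Trp against Sc12 + IB, 0 rose and 10 fell (median -1.55), or 1 and 6 with library totals (median -0.79). Of 22 cytosolic Hsp70s and partners, 11 rose and 2 fell in Sc12 + IB against Sc12 (median 1.04), or 6 and 4 with library totals (median 0.21). SSA3 fell in both strains, at -4.80 in Sc12 + IB and -4.15 in WT + IB. Of 30 other targets of Msn2 and Msn4, 2 rose and 2 fell in Sc12 + IB against Sc12 (median 0.035), or 0 and 9 with library totals (median -0.79). In WT + IB against WT, 0 of the 30 rose and 14 fell (median -0.90), led by RTN2 (-2.58), SOL4 (-2.49), GRE1 (-2.12) and ALD3 (-1.93). In Sc12 + IB + Trp against WT + IB + Trp, where HSP12 and HSP26 were higher, 14 of these 30 were higher and 0 lower (17 and 0 with library totals, where 14.2% of all loci were higher and 10.5% lower), with SOL4 at 2.49 and XBP1 at 2.60. In Sc12 + IB against WT + IB, where neither HSP12 nor HSP26 was called, 15 of the 30 were higher and 0 lower (median 1.04), or 6 and 3 with library totals. With library totals, 8.07% of all loci were higher and 33.9% lower in this comparison. The same shares were 7.8% and 42.3% in Sc12 + IB against Sc12, and 37.8% and 6.93% in Sc12 + IB + Trp against Sc12 + IB. The first 2 lists share 6 genes, so their counts are not independent.

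**Figure D5:**
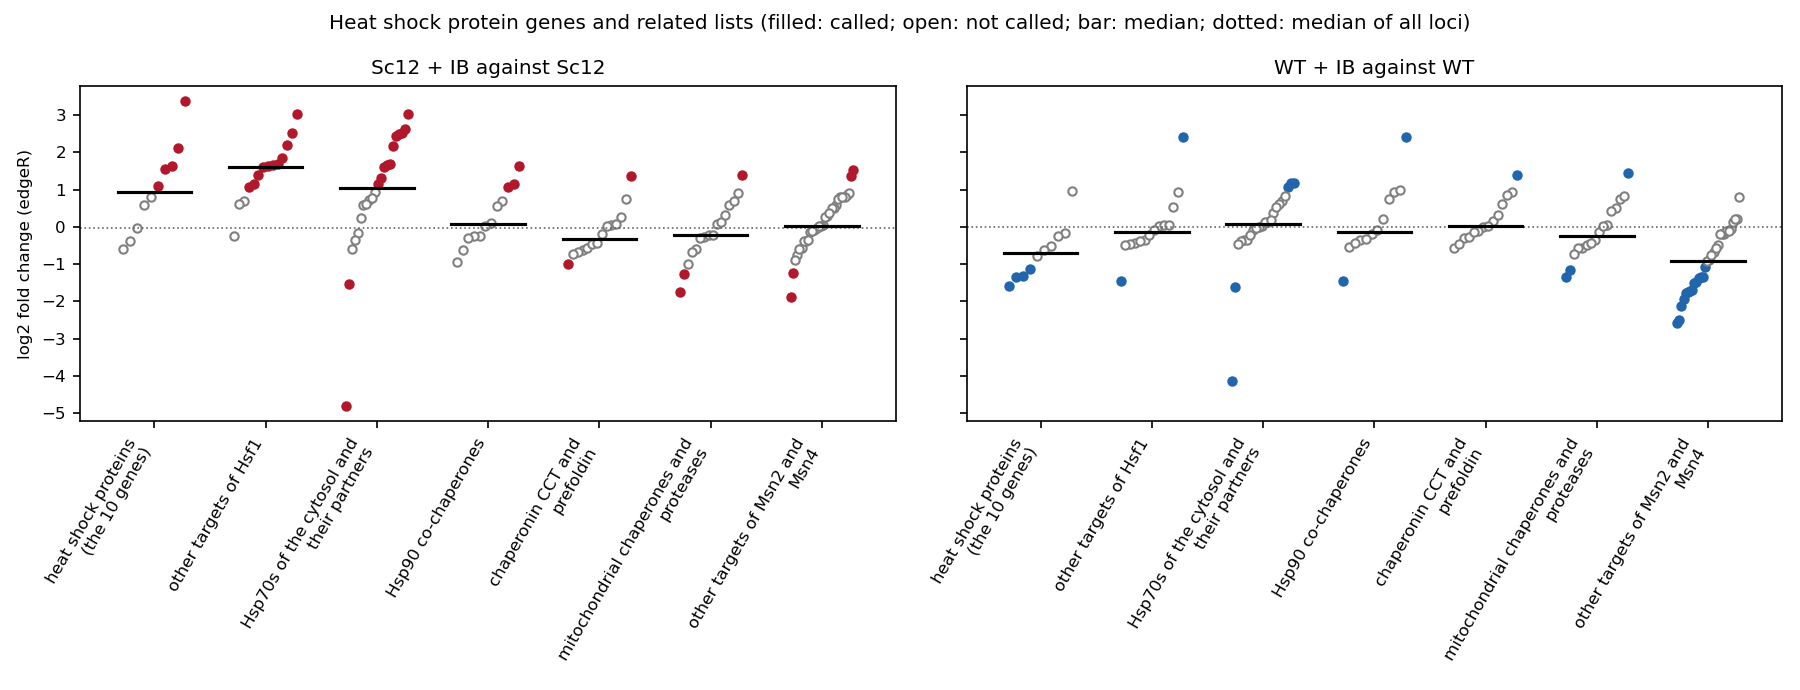
Log2 fold change of the 10 members and of the genes of 6 related lists in Sc12 + IB against Sc12 and in WT + IB against WT (points are genes, bars list medians, the dotted line the median of all loci). The targets of Hsf1 have a median of 1.61 in Sc12 + IB against Sc12 with TMM scaling (0.79 with library totals), and the targets of Msn2 and Msn4 one of -0.90 in WT + IB against WT.

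The partners of the members held fewer calls with TMM scaling. Their counts in Sc12 + IB against Sc12 are to be read against the shares of all loci. These were 17.2% higher and 10.6% lower with TMM scaling, and 7.8% and 42.3% with library totals. Of 12 Hsp90 co-chaperones, 3 rose in Sc12 + IB against Sc12, AHA1 (1.63), HCH1 (1.14) and CNS1 (1.06), and 0 fell, while with library totals 0 rose and 5 fell. AHA1 rose with isobutanol in all 4 comparisons with TMM scaling (0.80 and not called in Sc12 + IB against Sc12 with library totals), also in Sc12 + IB + Trp against Sc12 + Trp (2.40) and in WT + IB + Trp against WT + Trp (2.06), where HSP82 and HSC82 did not rise. Of 16 mitochondrial chaperones and proteases, the Hsp70 co-chaperone MDJ1 rose (1.40) and the protease PIM1 (-1.76) and the Hsp70 ECM10 (-1.28) fell in Sc12 + IB against Sc12, and with library totals 0 rose and 9 fell. Of 14 genes of the cytosolic chaperonin CCT and of prefoldin, GIM3 rose (1.37) and CCT4 fell (-1.01) in the same comparison, and with library totals 0 rose and 8 fell. Of 5 other genes named HSP or related to HSP31, 4 were tested, without HSP32, and HSP31, a glyoxalase, rose by 2.02 in Sc12 + IB against Sc12 (1.19 and called with library totals).

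HSF1 had 432 ± 11.8 CPM in Sc12 + IB, against 478 ± 10.4 CPM in Sc12 (SD, n = 3 each), a log2 fold change of -0.15 (SE 0.07, adjusted p = 0.0535), and 387 ± 21.9 CPM in WT + IB, against 426 ± 0.417 CPM in WT, at -0.14 (SE 0.07, adjusted p = 0.0664). Neither was called. MSN2 had 215 ± 15.9 CPM in Sc12 + IB, against 128 ± 10.2 CPM in Sc12, at 0.75 (SE 0.09, adjusted p = 1.04e-07), under the fold threshold, and with library totals at -0.077. In Sc12 + IB against WT + IB it was called higher, at 1.22 (SE 0.09, adjusted p = 2.98e-11), but not with library totals, at 0.57. MSN4 had 452 ± 55.6 CPM in Sc12 + IB, against 445 ± 26.9 CPM in Sc12, at 0.023 (SE 0.09, adjusted p = 0.82) or -0.81 with library totals, and 205 ± 1.90 CPM in WT + IB, against 406 ± 15.0 CPM in WT, at -0.98 (SE 0.09, adjusted p = 9.02e-10), or -1.05 and called with library totals. Of all 15 regulators in the list, 1 rose in Sc12 + IB against Sc12, the transcription factor SKN7 (1.68, or 0.85 and not called with library totals), and 0 fell, while with library totals 0 rose and 3 fell. Of all loci, 17.2% rose and 10.6% fell there, or 7.8% and 42.3% with library totals. In WT + IB against WT, 0 of the 15 rose and 2 fell, the kinases SCH9 (-1.41) and YAK1 (-1.07), where 11.8% of all loci were higher and 8.89% lower. With library totals 0 of the 15 rose and 5 fell, where 10.8% of all loci were higher and 9.99% lower. Transcript levels do not report the activity of these factors, which was not measured.

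Of 6243 single-gene loci outside the members, those whose log2 CPM over the 24 libraries correlated best with each member are given with Pearson's r, as a description over libraries that share treatments and strains. For HSP82 they were YDJ1 (0.984), SIS1 (0.978) and SSA4 (0.958), which are cytosolic Hsp40 and Hsp70 genes, and for HSC82 ERO1 (0.972), RRI2 (0.943) and SAC6 (0.936). For HSP42 they were SSA4 (0.963), APJ1 (0.96) and MHO1 (0.957), and for HSP30 SIS1 (0.973), HRK1 (0.969) and BSC5 (0.963). HSP78 came closest to HRK1 (0.972), NUT2 (0.966) and BSC5 (0.963), and REA1 (0.971) and STI1 (0.955) were among the closest to HSP104. The best matches of HSP26 were MDH2 (0.924), SOL4 (0.917) and ATG33 (0.917) and those of HSP12 YDR491C (0.933), EOS1 (0.925) and CTP1 (0.924), with lower values than for the other members in both cases. For HSP60 they were TPD3 (0.969), PUP2 (0.939) and OTU1 (0.932), and for HSP10 TMA22 (0.96), LTP1 (0.947) and TMA19 (0.947). HSP30, which holds neither motif in the window searched, had an r of 0.97 with HSP78 and 0.955 with HSP82, while HSP60 and HSP10 had one of 0.617 with each other. All these values of r rest on CPM after TMM scaling, and none was computed with library totals.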

How the data were processed

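The authors sequenced 50-base single-end reads of the 24 libraries and, per the labels and the study's methods, used bcl2fastq 2.18, Trimmomatic 0.39, TopHat2 2.1.1 and Cufflinks 2.2.1 on sacCer3. The gene annotation is not given in the sources used here. The deposited estimated counts are fragments per locus and library without scaling, of which 98.83% lie within 0.001 of a whole number. They were rounded. The FPKM values, which the authors derived from the fragments with a scaling of their own, served for the filter on low values (a mean FPKM of at least 1) and as an alternative. A second table with the authors' fold changes, p-values and q-values was used for positions alone.

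Of 6929 loci, 24 had a failed estimate, 103 join more than 1 gene (none of them a member), and 6346 were tested. One quasi-likelihood fit of edgeR 4.0.16 in R 4.3.3, with TMM scaling and 8 group means, gave 12 comparisons and 3 interactions with 16 residual degrees of freedom. The thresholds are those of the study. On simulated data for WT + IB against WT over 6346 loci, 100% of 100 loci changed 4-fold and 52% of 100 changed 2-fold were called, with 0 false calls. As many loci were raised as lowered there, and all others were left equal. No shift of the bulk of loci like that in Sc12 + IB was simulated, so the result does not cover comparisons with that group. Ratios were compared by exact two-sided permutation tests, whose smallest p is 0.1. Alternatives were library totals, DESeq2 1.42.0 (size factors and test), limma 3.58.1 on log2(FPKM + 1), other filters, a fit of the compared groups only, a replicate block, and leaving out libraries. Members and gene lists were chosen with earlier results of these data known. All members, at most 4 called genes of a list with the largest changes in a comparison, HSF1, MSN2 and MSN4, and the 3 loci most like each member are named, except 1 locus that is not reported here. Tables were read with Python 3.11.15 and pandas 2.3.3, and figures drawn with matplotlib 3.10.9.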

Additional observations from a re-analysis of the deposited data

Results flagged for a closer look

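The differences below were flagged because the effect of 1 addition differed between Sc12 and WT by the interaction term of the edgeR fit (log2 scale, adjusted p over 6346 loci). No explanation was tested.

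The isobutanol response without tryptophan was higher in Sc12 than in WT for HSP30 by 4.72 (SE 0.26, adjusted p = 7.3e-13), for HSP78 by 3.68 (SE 0.21, adjusted p = 7.08e-13), for HSP104 by 2.39 (SE 0.25, adjusted p = 2.83e-08), for HSP82 by 2.24 (SE 0.26, adjusted p = 1.39e-07), for HSP42 by 1.71 (SE 0.24, adjusted p = 1.97e-06) and for HSC82 by 1.37 (SE 0.21, adjusted p = 8.88e-06). With library totals HSP42, at 0.94, and HSC82, at 0.61, were not called. With TMM scaling, all 3 libraries of Sc12 + IB lay above all 3 of Sc12 for these 6 genes. For HSP42 alone WT + IB overlapped with WT under the same scaling. With library totals, HSC82 had 2408, 2217 and 1996 CPM in Sc12 + IB, below the 2555, 2669 and 2580 CPM of Sc12.

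With tryptophan present, the isobutanol response was higher in Sc12 for HSP26 by 1.97 (SE 0.36, adjusted p = 6.4e-05) and for HSP12 by 1.82 (SE 0.27, adjusted p = 4.66e-06). In both genes WT + IB + Trp lay below WT + Trp without overlap, while Sc12 + IB + Trp and Sc12 + Trp overlapped.

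The effect of tryptophan under isobutanol was lower in Sc12 than in WT for HSP30, at -3.96 (SE 0.26, adjusted p = 1.42e-11), for HSP78, at -3.21 (SE 0.21, adjusted p = 7.8e-12), for HSP104, at -2.53 (SE 0.25, adjusted p = 1.14e-08), for HSP82, at -2.07 (SE 0.26, adjusted p = 4.12e-07), for HSC82, at -1.80 (SE 0.21, adjusted p = 1.73e-07) and for HSP42, at -1.21 (SE 0.24, adjusted p = 0.000134), which with library totals was at -0.46 and not called. It was higher in Sc12 for HSP26 by 1.31 (SE 0.36, adjusted p = 0.00315) and for HSP12 by 1.15 (SE 0.27, adjusted p = 0.000765), the second of which stood at 1.00, on the threshold and not called, without Sc12 + IB + Trp replicate 1. The first and the last of these 3 contrasts share the libraries of Sc12 + IB and WT + IB.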

How the results depend on the processing

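The 51 calls of a member in a contrast kept their direction in every setting tried. With the DESeq2 test, DESeq2 size factors in edgeR, both filters on low values, a fit of the compared groups only and the replicate block, all 51 stayed called. The replicate block changed no call. Deviations from the group means had a median r of 0.022 over the 84 pairs of libraries with the same replicate number. The range was -0.335 to 0.759, and the median for different numbers was -0.003. Of the 84 pairs, 24 had an r over 0.1, and whether some libraries shared a batch was not tested. With library totals in place of TMM 9 calls were lost, with limma on log2(FPKM + 1) 10, and without the make-up libraries 1. Lost with limma were HSP26 in WT + IB against WT, HSP12 in WT + IB + Trp against WT + Trp and HSP10 in Sc12 + IB against WT + IB. HSC82 was lost in Sc12 + IB + Trp against Sc12 + Trp and against WT + IB + Trp. The others were interactions: HSP42 in the isobutanol response, HSP12 in that with tryptophan, and HSP12, HSP26 and HSP42 in the tryptophan effect.

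Counts of members called that moved by more than 1.5 times were as follows. In Sc12 + Trp against WT + Trp the count was 0 with library totals and 0 without the make-up libraries. With limma it was 1 in the isobutanol response with tryptophan between strains (HSP26) and 5 in the tryptophan effect under isobutanol between strains (HSP30, HSP78, HSP82, HSC82 and HSP104). By adjusted p alone it was 8 in WT + IB against WT, 8 in WT + IB + Trp against WT + Trp, 9 in Sc12 + IB against Sc12, 6 in Sc12 against WT, 5 in Sc12 + Trp against WT + Trp, 6 in Sc12 + IB + Trp against WT + IB + Trp and 5 in the isobutanol response with tryptophan between strains. Leaving out each replicate in turn gave 3 to 5 members in WT + IB against WT, 5 in WT + IB + Trp against WT + Trp, 4 to 5 in Sc12 + IB against Sc12, 2 to 4 in Sc12 + IB + Trp against Sc12 + Trp, 6 to 7 in Sc12 + IB + Trp against Sc12 + IB, 1 to 2 in Sc12 against WT, 0 to 1 in Sc12 + Trp against WT + Trp, 5 to 7 in Sc12 + IB against WT + IB, 2 to 4 in Sc12 + IB + Trp against WT + IB + Trp, 6 and 2 in the isobutanol response between strains without and with tryptophan, and 7 to 8 in the tryptophan effect between strains. The log2 difference of the HSP60 to HSP10 ratio from deposited FPKM was 0.0535 in WT + IB + Trp against WT + Trp and 0.14 in Sc12 + IB + Trp against Sc12 + Trp, both turned, and -0.87 in WT + IB against WT and -1.43 in Sc12 + IB against Sc12. The cause was not tested. With 3 libraries a group and a common coefficient of variation of 10.4%, changes near 2-fold fall on either side of the threshold.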

Other observations

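The search for motifs was extended, after the values of the members were seen, to all other genes. A heat shock element of 3 units in the same window was held by 45 other genes that were tested. In Sc12 + IB against Sc12, 13 of these 45 rose (28.9%) and 4 fell (8.89%) with TMM scaling, where 17.2% of all loci rose and 10.6% fell. With library totals 7 rose (15.6%) and 12 fell (26.7%), where 7.8% of all loci rose and 42.3% fell. In Sc12 + IB + Trp against Sc12 + IB, 5 of them rose (11.1%) and 15 fell (33.3%) with TMM scaling, where 9.39% of all loci rose and 14.6% fell. With library totals 11 rose (24.4%) and 7 fell (15.6%), where 37.8% of all loci rose and 6.93% fell. In WT + IB against WT, 8 rose (17.8%) and 2 fell (4.44%), where 11.8% of all loci rose and 8.89% fell. The stress response element was held by 1014 other tested genes, of which 88 rose (8.68%) and 125 fell (12.3%) in WT + IB against WT. In Sc12 + IB against Sc12, 163 of them rose (16.1%) and 78 fell (7.69%), against 66 (6.51%) and 397 (39.2%) with library totals, so both shares lay under those of all loci with either scaling. These are counts, and whether the elements are bound was not measured.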
